A study of Apis mellifera with 6 samples.

Results

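Ecr and Usp are the genes of the honey bee ecdysone receptor and of its partner ultraspiracle, and their accessible chromatin was described here in the central brains of newly eclosed Apis mellifera. ATAC-seq uses the transposase Tn5 to cut and tag DNA that is not wrapped in nucleosomes, and the values come from peak lists of nucleosome-free fragments of up to 100 bp. The 3 phenotypes were queens (diploid females), workers (diploid females) and drones (haploid males), all newly emerged adults of the same mother queen, with 2 libraries each and a pool of 5 brains without optic lobes behind each library. The labels give no treatment or altered allele, and the phenotypes differed in rearing, workers and drones from capped brood of the hive and queens from larvae grafted into queen cups.

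The members were chosen by position alone. A peak was taken when its summit, the base of highest fragment coverage, lay in the gene body of Ecr or Usp or in the 2 kb on either side, and peaks of different libraries that overlapped by at least 1 bp were merged into a site. This gave 94 sites of 60136 in the genome, 65 at Ecr and 29 at Usp, made of 373 of the 204513 peaks in the 6 lists. The sites are numbered along the linkage group (honey bee chromosome) within each gene.

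EcR is a nuclear receptor that binds the steroid hormone 20-hydroxyecdysone, and it does so as a heterodimer with USP, the insect counterpart of the vertebrate retinoid X receptor. The hormone-bound pair activates early response genes, many of which encode transcription factors that pass the signal on, and in insects this cascade times moulting and metamorphosis. In Drosophila melanogaster, EcR isoforms made from alternative promoters are also required for the remodelling of mushroom body neurons, the higher-order neurons of the insect brain. Accessible sites inside such genes may be promoters, enhancers or other bound elements, and an accessibility list alone does not tell these apart.

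Ecr (gene ID 406084) occupies bases 9626947 to 9747799 of linkage group 8 in the assembly Amel_HAv3.1, a span of 120.853 kb, and the annotation lists 4 transcripts for it. Usp (gene ID 409227) occupies bases 7403312 to 7457844 of linkage group 9, a span of 54.533 kb with 10 listed transcripts. The gene table used here gives neither strand nor exons, so sites are described by distance from the first annotated base, meaning the end with the lower coordinate, and not as promoter, exon or intron. Other genes lie inside both bodies, and without strand a site in the overlap cannot be assigned to either. The long non-coding RNA gene LOC107964817 covers 31790 bp of Ecr (9655389 to 9687178), where 21 of the Ecr sites lie. Within Usp, the long non-coding RNA gene LOC102653672 covers 15297 bp (7431677 to 7446973) and holds 7 sites, LOC102653834 holds 2, and LOC102653781 holds 0. The protein-coding gene LOC409262 begins 741 bp past the last base of Usp and overlaps 1 site, Usp site 29.

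Before the results, 2 properties of the lists need stating. The lists held between 28026 and 39158 peaks, so a longer list can give more sites to any gene, and the commonest local background ranged between 1.04 and 1.47 fragments. The total fragments per library were not used here. A shared label that reads like a sequencing run stands in the names of queen and worker peaks but not of drone peaks. The sample titles do not say whether drones were sequenced in another run. If they were, a drone difference and a run difference cannot be told apart. The samples are bulk tissue, in which fewer cells of a type and less accessible DNA per cell cannot be told apart, and the tissue label was not checked against marker genes because the lists hold no RNA.

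The rows of peaks along the genes show that accessible sites were spread over both gene bodies rather than gathered at the ends. The median gap between neighbouring sites was 1218 bp at Ecr and 1027.5 bp at Usp. The longest stretch with no site in any library was 5.65 kb in Ecr and 4.69 kb in Usp. Sites called in all 6 libraries were sparser, with a median gap of 3866 bp in Ecr and 2091.5 bp in Usp. The longest stretch without such a site was 15.1 kb in Ecr, from 9650677 to 9665800, and 7.78 kb in Usp, from 7418645 to 7426419.

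**Figure D1:**
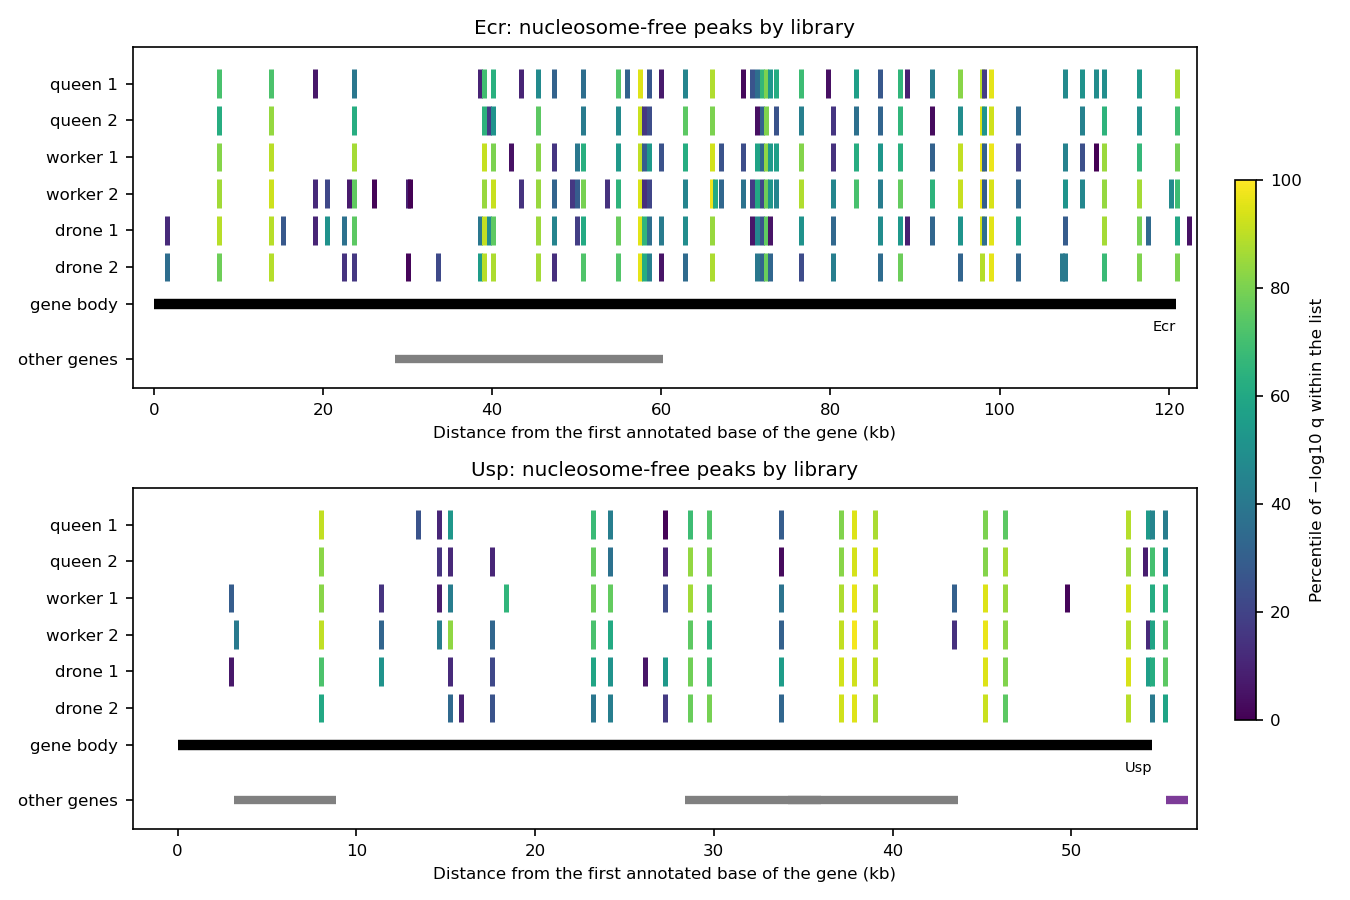
Nucleosome-free peaks along Ecr (top) and Usp (bottom), with distance from the first annotated base in kb on the horizontal axis and 1 row for each library; colour gives the percentile of a peak's −log10 q within its own list, black bars the gene body, grey bars long non-coding RNA genes and the purple bar LOC409262. The first site called in all 6 libraries stands 7355 bp into Ecr and 7854 bp into Usp, and calls reach the opposite end of both genes.

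The 2 ends of each gene differed. No site lay within 200 bp of the first annotated base of either gene, the nearest beginning 1325 bp inside Ecr and 2906 bp inside Usp. At the other end, Ecr site 64 (9747833 to 9748063) began 34 bp past the last base and Usp site 28 (7457763 to 7457887) spanned the last base, and both were called in all 6 libraries. Usp site 27 (7457545 to 7457665) reached within 200 bp of the last base and was called in only 3 libraries. Its fold enrichment was 5.11 in queen 1, 3.70 in worker 2 and 5.69 in drone 1. Fold enrichment divides the fragments over the summit by those of the surrounding background in that library, after 1 is added to each. It was 8.79 and 6.67 at Ecr site 64 for queens, 7.82 and 6.53 for workers and 6.06 and 8.90 for drones. Usp site 28 had 4.67 and 6.72 for queens, 5.93 and 6.10 for workers and 6.19 and 5.11 for drones. The phenotypes overlapped at both sites. Which of these ends carries a transcription start was not determined.

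The sites just outside the window were called in every library at both genes. At Ecr the outermost sites inside it were site 1 at the low end, called in 2 libraries, and site 65 (9749254 to 9749359) at the high end, called in 1. The nearest site outside on the low side was 9623386 to 9623755, and on the high side 9749829 to 9750053 began 2030 bp past the gene. At Usp the outermost sites inside were site 1 (7406218 to 7406340), called in 2 libraries, and site 29 (7458472 to 7458647), called in all 6. The nearest outside were 7398429 to 7398591 and 7461344 to 7461541.

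A larger share of Usp and Ecr sites than of sites in the genome was called in every library. All 6 libraries called 15 of 29 Usp sites (51.7%) and 24 of 65 Ecr sites (36.9%), against 27.4% of all sites. A call in only 1 library was seen at 7 Usp sites (24.1%) and 15 Ecr sites (23.1%), against 30.1% of all sites. Of the 15 single calls at Ecr, 7 came from worker 2, which had the longest list. Over all sites worker 2 gave 4443 of the 18076 single calls, and drone 1 gave the most, 4771. These shares are a description of 2 genes and carry no test.

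Sites called in all libraries (shared sites) are described here beside all shared sites of the genome, with no test. Their median merged width was 297.5 bp at Ecr, 256 bp at Usp and 258 bp over all shared sites. Their summits differed between libraries by a median of 70 bp at Ecr, 53 bp at Usp and 60 bp over all shared sites. The percentile of a peak is the share of its own list with a −log10 q no higher than its own, so that 100 is the strongest peak. The mean percentile over libraries had a median of 71.1 at Ecr, 78.2 at Usp and 70.8 over all shared sites, while sites of a single library had medians of 16.2, 8.85 and 15.7. A mean percentile of at least 90 was reached by 12.5% of the shared Ecr sites and 6.67% of the shared Usp sites, against 16.7% of all shared sites. Summits within 25 bp of each other in all libraries were seen at 0 of the shared Ecr sites and 2 of the shared Usp sites, against 14.6% of all shared sites.

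Ecr and Usp were both dense in summits for long genes. Ecr had a mean of 42.2 summits per library, or 3.38 per 10 kb, and Usp a mean of 20.0, or 3.42 per 10 kb. Among genes of at least 50 kb, these densities stood at percentile 98.1 for Ecr and 98.2 for Usp. Peaks covered 6.805% and 5.82% of the Ecr window for queens, 7.20% and 7.95% for workers and 7.97% and 6.44% for drones. At Usp they covered 6.64% and 6.45% for queens, 7.40% and 6.95% for workers and 7.66% and 6.37% for drones. At both genes the queen and worker libraries did not overlap in this share, workers being higher, and the drone libraries overlapped with both. The 3 libraries with the largest covered share were those with the 3 longest lists, in another order.

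The strongest site of Ecr was site 54 (9725600 to 9726370), 98.7 kb from the first base and 771 bp wide, at a mean percentile of 95.2. Its fold enrichment was 8.72 and 8.02 for queens, 9.98 and 8.50 for workers and 9.94 and 10.8 for drones. Every library placed it near the top of its list, with percentiles between 92.9 and 97.1. Site 28 (9684219 to 9684622, mean percentile 93.8) lies where LOC107964817 overlaps Ecr. Its fold enrichment was 9.83 and 9.19 for queens, 8.99 and 11.02 for workers and 10.46 and 10.76 for drones. Site 52 (9724665 to 9724963, mean percentile 93.3) had 6.94 and 8.41 for queens, 9.87 and 10.6 for workers and 8.71 and 7.92 for drones. At sites 28 and 54 the worker libraries overlapped with the other phenotypes, and at site 52 both worker libraries stood above the other 4 in fold enrichment but not after centring on the library medians, where queen 2 was highest. Sites 51 to 54 lie together in 4.25 kb, and 3 of the 4 were shared. The local background at site 54 was 4.70 to 7.41 times the commonest background of the same library, so its fold enrichment was measured over a raised surrounding coverage.

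The strongest site of Usp was site 19 (7440934 to 7441348), 37.6 kb from the first base, at a mean percentile of 95.1. Its fold enrichment was 7.88 and 7.97 for queens, 9.57 and 11.2 for workers and 7.65 and 8.77 for drones. It stands between sites 18 and 20, also shared, and the 3 lie within 2.27 kb inside LOC102653672. Site 22 (7448197 to 7448718, mean percentile 89.996) had 7.49 and 7.76 for queens, 11.9 and 13.7 for workers and 13.3 and 11.8 for drones. Both queen libraries were lowest there, and workers and drones overlapped. Site 25 (7456366 to 7456610, mean percentile 89.95) had 9.26 and 9.17 for queens, 12.4 and 11.4 for workers and 14.3 and 11.7 for drones. Queens were lowest there in fold enrichment, but after centring on the library medians worker 2 was lowest. The local background at site 19 was 5.19 to 7.44 times the commonest background.

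The first comparison asked whether the phenotypes differ in how many accessible sites the receptor genes carry. At Ecr the summit counts were 42 and 34 for queens, 42 and 51 for workers and 46 and 38 for drones, or 38.0 ± 5.66, 46.5 ± 6.36 and 42 ± 5.66 (SD, n = 2 each). At Usp they were 19 and 19 for queens, 22 and 21 for workers and 21 and 18 for drones, or 19.0 ± 0, 21.5 ± 0.71 and 19.5 ± 2.12 (SD, n = 2 each). Workers had the highest means at both genes, and at Ecr the drones overlapped with both other phenotypes, while queen 1 and worker 1 had the same count.

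An exact permutation test of the sum of squares between phenotypes, over the 15 ways to divide 6 libraries into 3 pairs, gave p = 0.467 for Ecr and p = 0.533 for Usp (0.533 for both after adjustment over the 2 genes). This exact permutation test has no direction and cannot give less than p = 0.0667. When each list was held to its 28026 strongest peaks, the length of the shortest list, Ecr had 38 and 34 summits for queens, 35 and 37 for workers and 37 and 36 for drones (exact permutation p = 1). Usp then had 18 and 19 for queens, 18 and 19 for workers and 17 and 17 for drones (exact permutation p = 0.333, adjusted over both genes 0.667). The higher worker means were no longer present at equal list length.

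**Figure D2:**
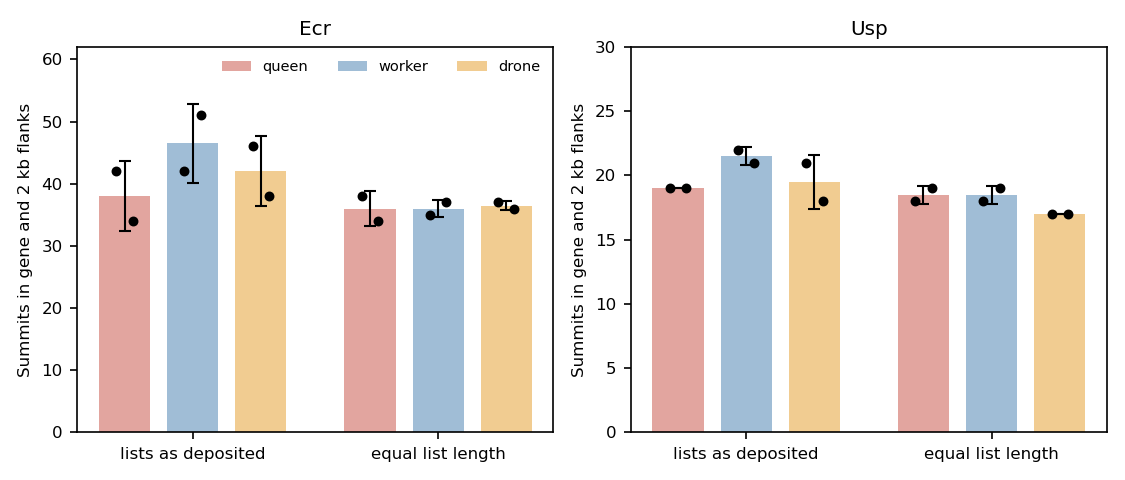
Summits in the gene and its 2 kb flanks for Ecr (left) and Usp (right), from the lists as deposited and at equal list length; bars are means of 2 libraries, points the libraries, and error bars the SD. Worker bars are highest in the lists as deposited, at 46.5 and 21.5, and at equal list length the 3 Ecr means lie between 36.0 and 36.5.

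The rank of the peaks within their lists gave no difference that passed a test either. The median percentile of the Ecr peaks was 48.8 and 49.3 for queens, 56.9 and 47.4 for workers and 48.5 and 42.9 for drones (exact permutation p = 0.667). For Usp it was 67.6 and 76.2 for queens, 68.3 and 71.1 for workers and 62.04 and 59.02 for drones (exact permutation p = 0.2, adjusted over both genes 0.4). Both drone libraries had the lowest Usp values and queens and workers overlapped. Peaks in the upper 10% of their list numbered 2 and 3 at Ecr for queens, 6 and 7 for workers and 4 and 2 for drones. As shares of the Ecr peaks these were 4.76% and 8.82% for queens, 14.3% and 13.7% for workers and 8.70% and 5.26% for drones. At Usp they numbered 2 and 2 for queens, 3 and 4 for workers and 4 and 3 for drones. The Usp shares were 10.5% and 10.5% for queens, 13.6% and 19.0% for workers and 19.0% and 16.7% for drones. A longer list has more peaks in its upper 10%, and these counts carry no test.

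The second comparison asked which sites were called in a phenotype and in no other. No site of either gene was called in both queen libraries and in none of the other 4, a class that held 0.773% of all sites. Ecr site 35 and Usp site 21 were called in both workers alone (3.51% of all sites), and Ecr sites 1 and 7 in both drones alone (4.02% of all sites). No site was missing only from queens (2.09% of all sites) or only from workers (0.298% of all sites). Ecr sites 42, 46 and 58 and Usp site 6 were called in all 4 queen and worker libraries and in neither drone library. That is 3 of 65 at Ecr and 1 of 29 at Usp, against 1.96% of all sites, and with so few members the shares cannot be separated from the background.

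The 4 sites without a drone call differed in strength. Ecr site 46 (9709835 to 9710178, 82.9 kb from the first base) was the strongest, with fold enrichment of 6.29 and 5.43 in queens and 7.25 and 8.56 in workers. Ecr site 42 (9700392 to 9700572) had 4.74 and 3.78 in queens and 4.65 and 4.07 in workers, and Ecr site 58 (9736586 to 9736767) had 4.93 and 4.67 in queens and 4.01 and 4.91 in workers. Usp site 6 (7417845 to 7417995) had 3.66 and 4.11 in queens and 3.86 and 5.46 in workers. The summit of Ecr site 46 carried 18 and 13 fragments in queens and 19 and 22 in workers, over a local background of at most 2.02 fragments. At equal list length the 3 Ecr sites kept this pattern of calls and Usp site 6 did not. Of all sites, 2.502% then had this pattern. A missing call means that no peak passed the list's threshold, not that the DNA was closed.

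The sites of a single phenotype were weak. Ecr site 1 (9628272 to 9628649) had fold enrichment of 3.94 and 5.09 in drones, and Ecr site 7 (9649303 to 9649455) had 5.47 and 4.52 in drones. Ecr site 35 (9694020 to 9694101) had 3.83 and 4.13 in workers, and Usp site 21 (7446677 to 7446784) had 3.77 and 3.24 in workers. Their percentiles lay between 12.1 and 36.8. At equal list length 2 of 55 Ecr sites were of workers alone (against 2.04% of all sites) and 1 of drones alone (against 4.06%). No Usp site was then of either class.

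The third comparison asked whether shared sites differ in strength. It used limma, a linear model with a moderated spread, on log2 fold enrichment centred on each library's median over all 16503 shared sites of the genome, with Benjamini-Hochberg adjustment over all of them and a threshold of 0.05. A site without a call in any 1 library could not enter this fit. Few shared sites of these genes were called. Workers minus drones gave 2 calls among the 24 Ecr sites, both higher in workers, and 0 among the 15 Usp sites, against 1.91% of all shared sites called higher in workers and 1.5% called higher in drones. Queens minus workers gave 0 member calls (background 0.0667% higher in queens and 0.0242% higher in workers), and drones minus queens gave 0 (background 1.27% higher in drones and 1.99% higher in queens). At an unadjusted p under 0.05 limma had 2 Ecr sites and 1 Usp site in queens minus workers, and 3 of each gene in each of the other contrasts. These counts are 8.33% of the Ecr and 6.67% of the Usp sites in queens minus workers, against 12.9% of all shared sites. In each of the other contrasts they are 12.5% of the Ecr and 20.0% of the Usp sites, against 20.7% of all shared sites in workers minus drones and 21.9% in drones minus queens. At this unadjusted threshold the members were therefore at or below the background. The 2 adjusted calls among 24 Ecr sites fell in a single direction of a single contrast, for which the background was 1.91%. In both directions workers minus drones called 564 of the 16503 shared sites, and the other contrasts called 0 Ecr sites. Whether the Ecr share differs from the background was not tested. The 3 contrasts share libraries in pairs and are not independent of each other.

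Ecr site 51 (9722123 to 9722503), 95.2 kb from the first base and at the edge of the group that holds site 54, was the member with the largest difference between phenotype means. Its fold enrichment was 7.71 and 8.01 in workers and 4.09 and 3.70 in drones, with 6.11 and 4.12 in queens. Both worker libraries stood above the other 4, and the second queen library lay next to the drones. After centring on the library medians worker 2, at −0.18, stood only just above queen 1, at −0.23. The workers minus drones difference was 0.94 on the log2 scale (SE 0.215, 95% interval 0.48 to 1.398, limma adjusted p = 0.0335). In fragments at the summit the site had 59 and 66 in workers and 32 and 22 in drones, with 45 and 27 in queens.

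Ecr site 43 (9703363 to 9703648), 76.4 kb from the first base, had fold enrichment of 7.20 and 8.33 in workers and 4.76 and 3.89 in drones, with 5.43 and 4.46 in queens. Here too both worker libraries were highest, and queens and drones overlapped in fold enrichment. On the centred log2 scale of the fit they did not overlap, with −0.86 and −1.04 in drones and −0.40 and −0.69 in queens, and the drones minus queens difference was not called (limma adjusted p = 0.244). The workers minus drones difference was 0.77 on the log2 scale (SE 0.197, 95% interval 0.35 to 1.19, limma adjusted p = 0.0477). At both sites the queens minus workers interval included 0, with limma adjusted p of 0.477 at site 43 and 0.526 at site 51. The calls were close to the threshold: with a normal score of the within-list rank in place of fold enrichment the limma adjusted p was 0.141 at site 43 and 0.123 at site 51, and neither site was called when a worker or a drone library was left out. Without a queen library, site 43 had a limma adjusted p of 0.0605.

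**Figure D3:**
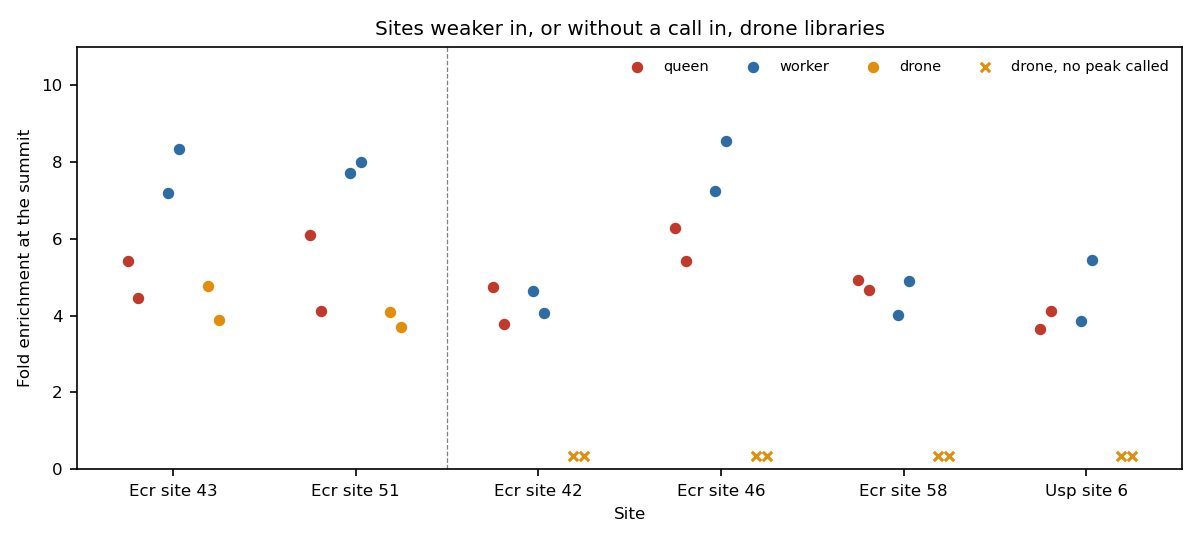
Fold enrichment at the summit in each library for the Ecr sites called by limma in workers minus drones (left of the dashed line) and for the sites with no drone call (right); points are libraries and crosses mark a library without a peak, not a measured value. At Ecr sites 43 and 51 both worker points lie above 7, and both drone points lie below 5.

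The neighbours of site 51 did not pass the threshold. Site 52, whose start lies 2542 bp further along, had a workers minus drones difference of 0.22 (SE 0.192, limma adjusted p = 0.554). Site 54, the strongest of the gene, had a workers minus drones difference of −0.25 (SE 0.201, limma adjusted p = 0.527). Ecr site 48 (9715071 to 9715280) had the smallest range of phenotype means in the gene, 0.065 on the log2 scale. Its fold enrichment was 7.26 and 7.66 for queens, 7.68 and 9.94 for workers and 6.91 and 10.4 for drones. The drone libraries held both the lowest and the highest value of the site.

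At Usp no shared site passed the threshold. Usp site 7 (7418416 to 7418644) had the largest range of phenotype means, with fold enrichment of 5.42 and 10.3 in workers, 3.65 and 5.16 in drones and 5.48 and 3.99 in queens. Worker 2 was highest and the other worker library lay among the queens, and the workers minus drones difference was 0.71 (SE 0.284, limma adjusted p = 0.175). Usp site 15 (7431840 to 7432136) had the smallest range, 0.080 on the log2 scale, and all 3 phenotypes overlapped there. Usp site 3 (7411166 to 7411483) came nearest to a call, and its fold enrichment was 8.20 and 7.09 in drones and 11.8 and 9.64 in queens, with 10.6 and 13.6 in workers. Both drone libraries were lowest, and the drones minus queens difference was −0.70 (SE 0.201, limma adjusted p = 0.0692). Site 3 was chosen after its values were seen.

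**Figure D4:**
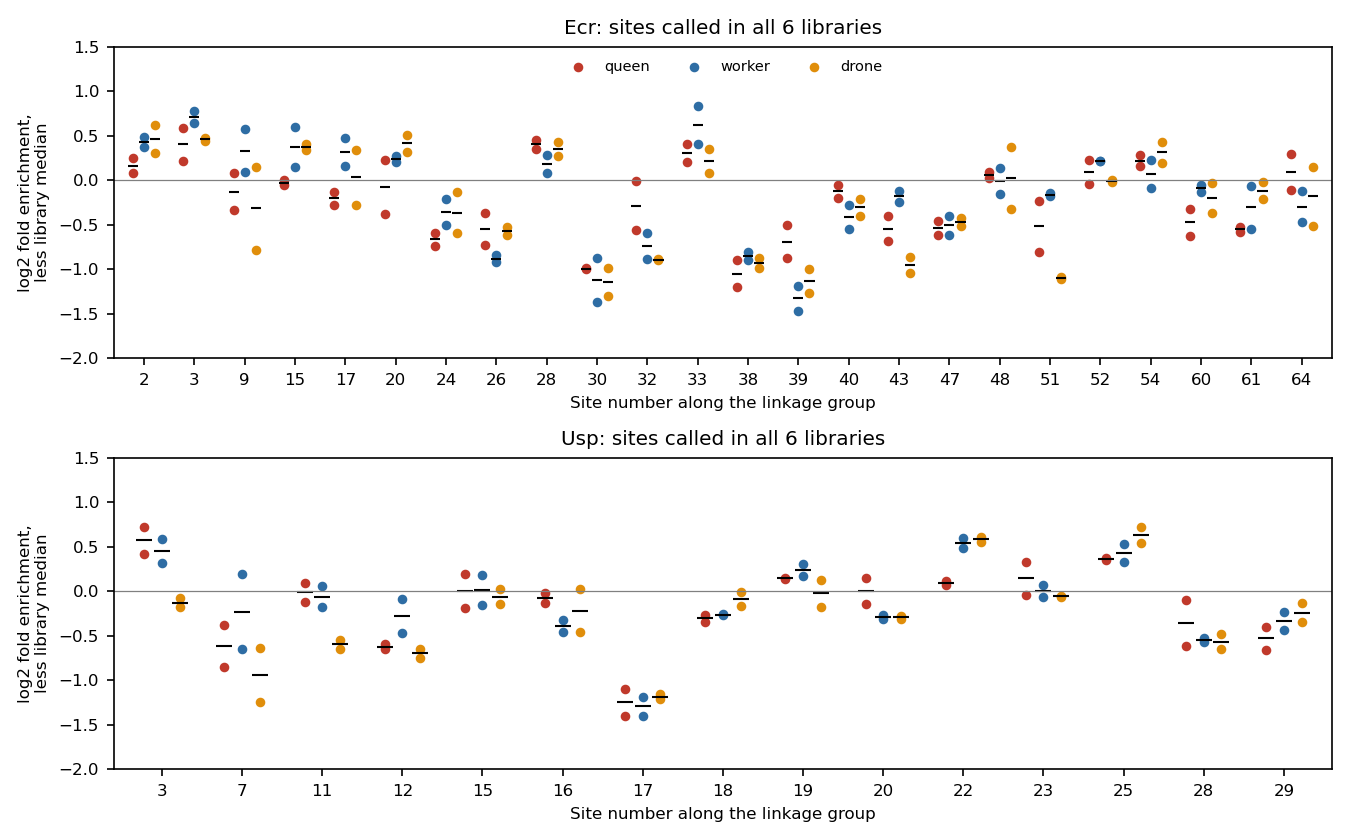
log2 fold enrichment less the library median over all shared sites, at the 24 shared Ecr sites (top) and the 15 shared Usp sites (bottom), in order along the linkage group; points are libraries and black lines phenotype means. At Ecr sites 43 and 51 the worker points lie apart from the drone points by 0.77 and 0.94 in the mean. Worker and drone points also lie apart at other sites, among them Usp sites 3 and 11, where no difference passed the limma threshold.

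The size of the differences is given beside that of all shared sites. The range of phenotype means had a median of 0.36 at Ecr, 0.29 at Usp and 0.37 over all shared sites, beside a median replicate SD of 0.20, 0.16 and 0.19. The median queens minus workers difference was −0.22 at Ecr, with 15 of 24 sites below 0, −0.02 at Usp and 0.01 over all shared sites. The median workers minus drones difference was 0.01 at Ecr, 0.02 at Usp and −0.02 over all shared sites. For drones minus queens it was −0.03 at Ecr, −0.14 at Usp and 0.00 over all shared sites.

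Pairs of libraries of the same phenotype had a higher mean overlap of covered bases than pairs of different phenotypes, by a difference that this design cannot bring past 0.05. The Jaccard index, the bases covered in both libraries over those covered in either, averaged 0.674 ± 0.040 within phenotypes and 0.604 ± 0.047 between them at Ecr (SD over 3 and 12 pairs of libraries). At Usp it averaged 0.724 ± 0.042 within phenotypes and 0.682 ± 0.028 between them. The true grouping had the largest difference of the 15 possible at both genes (one-sided exact permutation p = 0.0667 for each, the smallest the design allows). At equal list length this still held at Ecr but not at Usp, where the difference was 0.0314 (one-sided exact permutation p = 0.133). The Usp difference of 0.0415 was 0.0714 without worker 2 and 0.0269 without drone 1. At Ecr the queen and worker pairs averaged 0.659, the queen and drone pairs 0.570 and the worker and drone pairs 0.582. At Usp these averages were 0.696, 0.694 and 0.657, and the pair of worker libraries had 0.676, below the mean between phenotypes. Since lists differ in length, the overlap was also taken as a share of each library's own covered bases. It was 71.0% to 88.1% within phenotypes and 60.3% to 92.7% between them at Ecr, and 78.1% to 94.0% within and 71.7% to 87.6% between them at Usp. The pairs of single libraries therefore overlapped in range.

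Of a list of 40 symbols of ecdysone signalling, 8 genes were matched by symbol or synonym, Ecr and Usp among them. The other 6 were the early response genes E74, E75, Br-c and Mblk-1 (the bee counterpart of Drosophila E93), Kr-h1, a zinc finger gene that also responds to juvenile hormone, and Cyp314a1, which in Drosophila makes 20-hydroxyecdysone from ecdysone. E74 had the most summits of the list, 43 and 37 for queens, 49 and 58 for workers and 48 and 45 for drones. Cyp314a1 had the fewest, 1 and 1 for queens, 3 and 3 for workers and 1 and 1 for drones. These 6 genes held 185 sites, of which 57 (30.8%) were shared, against 27.4% of all sites. Of these 57 sites, 0 passed the limma threshold in any contrast. Over all 16503 shared sites, both directions together, limma called 15 in queens minus workers. It called 564 in workers minus drones and 539 in drones minus queens. Of the 185 sites, 8 lacked only the drone calls (4.32%, against 1.96% of all sites) and 8 were of drones alone (4.32%, against 4.02%). A further 6 lacked only the queen calls (against 2.09% of all sites) and 4 were of workers alone (against 3.51%). Of queens alone there was 1 (against 0.773%), and 0 lacked only the worker calls (against 0.298%). Of the 8 genes Ecr alone had called shared sites, and the difference from the other genes was not tested.

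The genes whose summit counts at equal list length followed those of Ecr most closely over the 6 libraries were LOC551663 (Pearson's r = 0.888), LOC413385 (r = 0.794) and LOC551957 (r = 0.786). For Usp they were LOC725482 (r = 0.971), LOC725408 (r = 0.956) and the long non-coding RNA gene LOC100577428 (r = 0.956). These are the highest of 324 candidate genes and are given as a description, since the counts of Ecr span only 34 to 38 and those of Usp 17 to 19.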

How the data were processed

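The deposited files were 6 peak lists, 1 per library. Per the study's methods, the authors aligned reads with BWA 0.7.17 to Amel_HAv3.1, kept fragments of up to 100 bp and called peaks with MACS2 2.2.7.1 on each library with the genome size set to 270000000 bp. Duplicate handling was not given in the sources used here. The deposited values were fold enrichment, a ratio, and −log10 p and q, all with q of at most 0.01. The deposited score was not used. The members, lists and tests were chosen with earlier results of these data known.

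Summit fragment counts were solved from the deposited fold enrichment and −log10 p, whole within 5% for at least 99.997% of peaks. Sites were named by fixed rules: the 3 strongest per gene, those within 200 bp of a gene end, those of or missing from a single phenotype, limma calls, window edges, and the largest and smallest range of phenotype means. limma 3.58.1 in R 4.3.3 fitted all libraries together (prior df 11.0, residual df 3). Scripts used Python 3.11.15, NumPy 2.4.6, pandas 2.3.3 and SciPy 1.17.1, and the tests were tested on simulated data. Replicates were separate pools of 5 brains. Alternatives were equal list length, −log10 q of at least 5, gene body only, sites of at least 50 bp overlap, no centring, summit fragments, rank scores, a replicate block and each library left out. The Jaccard alternatives were added after seeing the data.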

Additional observations from a re-analysis of the deposited data

How the results depend on the processing

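Same-numbered libraries did not deviate together (Pearson's r of deviations 0.0079, 0.012 and −0.0049), so the numbers were not taken as pairs. With a replicate block in limma, workers minus drones had 1 member call in place of 2 (Ecr site 43 had adjusted p = 0.0518, site 51 0.0302), queens minus workers and drones minus queens had 0, and the smallest p of the summit and Jaccard tests became 0.167. Rank scores gave 0 calls in workers minus drones, and leaving out a library gave 0 to 1, with 1 (site 51) without either queen library and 0 without either worker or drone library. Drones minus queens had 0 calls, but 1 without centring (Usp site 22, 0.71, adjusted p = 0.0469) and 2 on summit fragments (Ecr site 15, 0.90, adjusted p = 0.0186, and Usp site 3, −0.78, adjusted p = 0.0454). Omitting centring shifted all differences by −0.29 in queens minus workers, 0.08 in workers minus drones and 0.22 in drones minus queens.

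Over all 16503 shared sites, workers minus drones had 564 calls (316 higher in workers), but 494 without centring (359 higher), 1415 on summit fragments and 9 on rank scores. Drones minus queens had 539 (210 higher in drones), but 1094 without centring (976 higher), 1643 on summit fragments and 1 on rank scores. Queens minus workers had 15 (11 higher in queens), but 402 without centring (13 higher), 191 on summit fragments (154 higher) and 0 on rank scores. Leaving out a library gave 8 to 394, 5 to 646 and 0 to 10 calls in these contrasts. The cause of these changes was not tested.

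The counts of sites by phenotype moved most when a library was left out, as a class then rests on a single library. Sites of queens alone numbered 0, and 0 to 3 with a library left out (3 without queen 2, against 4.09% of all sites). Sites missing only from queens numbered 0, and 0 to 3 (3 without either queen library, against 4.62% of all sites without queen 1 and 3.66% without queen 2). Sites of workers alone numbered 2, and 2 to 10 (10 without worker 1, against 10.9% of all sites). Sites missing only from workers numbered 0, and 0 to 1 (1 without queen 2 and 1 without worker 1, against 0.833% and 0.816% of all sites). Sites of drones alone numbered 2, with 1 at equal list length, 1 at −log10 q of at least 5, and 2 to 6 with a library left out (6 without drone 2). Over all sites this class held 4.06% at equal list length, 4.10% at the stricter q and 11.9% without drone 2. Sites missing only from drones numbered 4, with 3 at equal list length and 3 at −log10 q of at least 5. With a library left out they numbered 4 to 6 (6 without drone 1). Over all sites this class held 2.502% at equal list length, 1.902% at the stricter q and 4.05% without drone 1. Of 123 alternative values, 24 moved. The other 99 stayed on their side of the threshold, within 1.5 times their count or, with no test, within 1 SD. These 99 include exact permutation tests of summits and overlap that could not cross 0.05, so their staying says nothing about stability. Staying also does not cover the order of the phenotype means. At Ecr workers had the highest mean of summits in the deposited lists, and drones at equal list length. With 2 libraries per phenotype, exact permutation tests could not reach 0.05, and the lowest summit of any list carried 6 to 7 fragments, so weaker sites were not detectable.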
